A study of Homo sapiens with 6 samples.

Results

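The mRNA levels of 10 enzymes that make or remove nitric oxide, prostaglandins, tryptophan metabolites and reactive oxygen were followed in the established human multiple myeloma line RPMI8226 upon exposure to a fragment of the matrix protein HAPLN1. The genes are NOS2, GCH1, SOD2, PTGS2, IDO1, HMOX1, NQO1, GCLM, TXNRD1 and SRXN1. They were chosen by symbol with earlier results of these data known, and each was matched to 1 Ensembl gene on a primary chromosome, which makes 10 of the 63677 genes in the deposited table. Of these, 8 passed the expression filter and were tested among 16926 genes, while IDO1 and SRXN1 had too few reads.

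Wild-type RPMI8226 cells received 100 nM GST-PTR1 or 100 nM GST for 6 hr, in 3 biological replicates each. In GST-PTR1 the PTR1 domain of HAPLN1 is joined to glutathione-S-transferase (GST), which the control cells received by itself, so both treatments contained GST. The fusion protein was made in Escherichia coli. The paper measured bacterial lipopolysaccharide and put it a few orders of magnitude under what its NF-κB binding assay can detect. Other differences between the protein preparations cannot be told apart here from what the PTR1 domain adds. All samples came from 1 cell line at 1 dose and 1 time, and stranded mRNA libraries were sequenced in bulk. Values are listed from the smallest to the largest library of a treatment, and libraries are called smallest, middle and largest in that sense.

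Nitric oxide synthases make nitric oxide from arginine and need the cofactor tetrahydrobiopterin, whose synthesis GCH1 starts. Cyclooxygenases convert arachidonic acid into the precursor of all prostaglandins, and IDO1 opens the kynurenine route of tryptophan breakdown. NOS2, PTGS2, GCH1 and SOD2 are textbook targets of NF-κB and are induced in inflamed tissue and activated macrophages. HMOX1, NQO1, GCLM, TXNRD1 and SRXN1 are textbook targets of the oxidant-sensing factor NRF2, and HMOX1 is also held down by the repressor BACH1.

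Total counts were 15202503, 20077280 and 23453473 for GST and 22874133, 28837431 and 44688737 for GST-PTR1, so that the treatments also differed in depth. Levels are given as RPKM, reads scaled by exon length and by library totals corrected with edgeR's TMM factors. A log2 change is the fitted log2 ratio of GST-PTR1 to GST. Uncorrected totals moved its median over all tested genes by -0.20, and that of each gene by about as much. All 10 plasma cell markers on a list were detected, 5 of them differed between treatments in edgeR's test, and their summed level was 21404 to 24337 RPKM with GST and 25016 to 31846 with GST-PTR1. Nearly all of that sum came from IGLC2 and IGLC3, which did not pass the test, and the 5 that differed did not move one way. SDC1 (log2 change -1.03), TNFRSF17 (-1.41) and XBP1 (-0.47) were lower with GST-PTR1, while SLAMF7 (1.52) and PRDM1 (1.35) were higher, and their part in the results was not tested. Markers of T cells were at or under 3 counts in every library, 5 monocyte and macrophage markers summed to 0.292 to 0.590 RPKM with GST and 0.416 to 0.583 with GST-PTR1, and the defining marker LYZ had at most 1 count in any library. Among these, FCGR1A was higher with GST-PTR1 (log2 change 1.22). FCGR1A passed the expression filter only through the GST-PTR1 libraries, so nothing is read from its test, and its part in the results was not tested. Of the stromal markers, COL1A2 and PDGFRB were at or under 3 counts, and COL1A1 had 4, 7 and 12 counts with GST and 9, 11 and 13 with GST-PTR1. The epithelial markers EPCAM (24.4 to 30.5 RPKM) and KRT18 (16.9 to 28.4 RPKM) were present in every library, while KRT8 of the same list was low (0.224 to 0.463 RPKM). KRT18 was lower with GST-PTR1 (log2 change -0.65, adjusted p = 0.000639 by edgeR). In bulk RNA, a change in how many cells carry a transcript and a change in its amount per cell cannot be told apart.

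With GST-PTR1, NOS2 and PTGS2 went from the limit of detection to a level near 1 to 2 RPKM, SOD2 was 7.14-fold higher and GCH1 2.28-fold higher. HMOX1 stood at 0.501 of its GST level. NQO1, GCLM and TXNRD1 overlapped between treatments. The set was chosen on this comparison, so these values describe it, no p-value of a member is given, and nothing is read from the calls that follow. By edgeR's quasi-likelihood fit with Benjamini-Hochberg adjustment over all genes tested, 4 of the 8 members tested were called higher at an adjusted p under 0.05, where 9.15% of all genes tested were, and 1 was called lower, where 11.4% were. NOS2 and PTGS2 passed the expression filter only through the GST-PTR1 libraries, so their call was fixed by that, and where at least 10 counts were required throughout, 2 of 6 members were called higher. The 4 higher members were also at least 2-fold higher, where 3.68% of all genes tested were, and no member was at least 2-fold lower by that fit, where 3.85% were. Libraries of the treatments did not overlap for 5 members, 4 of them higher with GST-PTR1, where 19.2% of all genes tested were, and 1 lower, where 21.2% were.

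**Figure D1:**
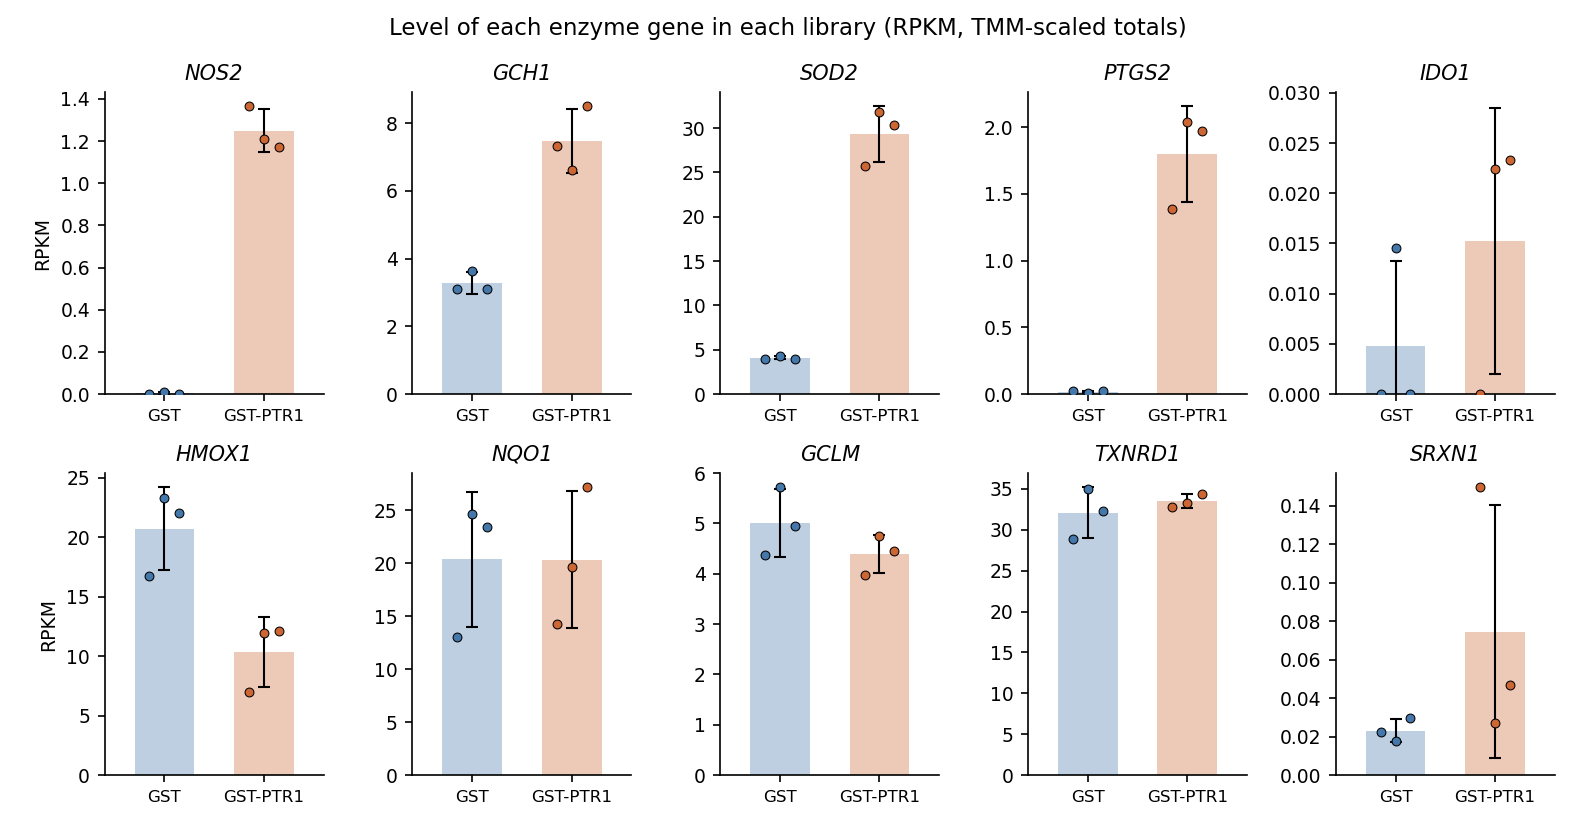
RPKM of the 10 enzyme genes in each library (points), with the mean (bar) and SD (error bar) of 3 libraries per treatment; axes differ between panels and error bars are clipped at 0. SOD2 rises from at most 4.295 with GST to between 25.8 and 31.8 with GST-PTR1, HMOX1 is below its GST range in all 3 GST-PTR1 libraries, and the IDO1 and SRXN1 panels rest on at most 9 counts in any library.

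Promoter sequences are shown for PTGS2, which appeared with GST-PTR1, and for GCLM and TXNRD1, whose levels overlapped. RefSeq windows on GRCh38.p14, from 250 bases before to 50 after a start site, were found for 6 members in 10 windows (4 for SOD2, 2 for TXNRD1 and 1 each for PTGS2, NQO1, GCLM and SRXN1). The tables used here had no entry for NOS2, GCH1, IDO1 and HMOX1. The 250 bases before the start are printed 5′ to 3′ on the gene's own strand for PTGS2 (chr1:186680424-186680673, minus strand), GCLM (chr1:93909431-93909680, minus strand) and the first TXNRD1 window (chr12:104215529-104215778, plus strand). Capitals mark matches on either strand to the motifs listed after the sequences, and the last match of TXNRD1 continues 1 base past the printed stretch.
PTGS2: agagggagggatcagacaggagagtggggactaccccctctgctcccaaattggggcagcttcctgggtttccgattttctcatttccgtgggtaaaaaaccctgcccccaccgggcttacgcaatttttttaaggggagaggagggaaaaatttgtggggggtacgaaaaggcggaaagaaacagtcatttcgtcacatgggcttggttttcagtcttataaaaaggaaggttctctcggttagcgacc
GCLM: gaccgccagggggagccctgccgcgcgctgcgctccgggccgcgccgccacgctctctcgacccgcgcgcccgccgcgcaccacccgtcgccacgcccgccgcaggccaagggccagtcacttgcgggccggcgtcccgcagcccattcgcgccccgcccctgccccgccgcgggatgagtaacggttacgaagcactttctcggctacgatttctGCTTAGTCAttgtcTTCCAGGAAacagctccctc
TXNRD1: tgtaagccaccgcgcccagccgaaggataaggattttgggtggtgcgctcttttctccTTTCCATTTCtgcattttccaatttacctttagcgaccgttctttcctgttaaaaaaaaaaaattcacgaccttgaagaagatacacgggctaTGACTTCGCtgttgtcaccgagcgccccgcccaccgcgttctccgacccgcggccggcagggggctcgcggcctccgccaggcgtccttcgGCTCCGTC

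The motifs searched on both strands were the κB consensus, the antioxidant response element core TGACNNNGC, the AP-1 site TGANTCA, the GAS element TTCNNNGAA and the ISRE core. The AP-1 and antioxidant motifs share their first letters and can overlap. The antioxidant core was in 3 windows of 2 members and in 13.3% of all 35114 windows. In GCLM it lay from -34 to -26 as GCTTAGTCA, which is the core on the opposite strand, and a GAS element, held by 7.66% of all windows, lay from -20 to -12 as TTCCAGGAA. In the first TXNRD1 window it lay from -99 to -91 as TGACTTCGC and from -8 to 1 as GCTCCGTCA, counting the start site as 1, with an ISRE core from -192 to -183, which 3.57% of all windows hold. The second TXNRD1 window held it from -102 to -94 as GCTTTGTCA. The κB consensus (5.91% of all windows) and the AP-1 site (7.71%) were in none of the 10 member windows, which says only that these letters are absent from these short stretches. No looser form of the κB consensus was searched, so sites that differ from it by a letter are not marked, in PTGS2 or elsewhere. PTGS2 held none of the listed motifs and so has no capitals. NQO1, SOD2 and SRXN1, which are not printed, held none of them either. The printed stretches thus do not stand for all members that rose or overlapped.

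NOS2 (ENSG00000007171, chromosome 17 of GRCh37 from 26083792 to 26127525, minus strand, 4176 exon bases) encodes the inducible nitric oxide synthase. Its counts were 0, 1 and 0 with GST and 127, 138 and 193 with GST-PTR1. On the RPKM scale these counts were 0, 0.0113 and 0 with GST and 1.36, 1.21 and 1.17 with GST-PTR1 (mean 1.25 ± 0.102, SD, n = 3). A single NOS2 read was seen in all GST libraries together, and the GST-PTR1 libraries varied little around their mean. Set against 3 counts in each GST library (0.0353 RPKM), the level was at least 35.4-fold higher with GST-PTR1. The fitted log2 change of 7.96 depends on how the zeros are treated and is not a bound.

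GCH1 (ENSG00000131979, chromosome 14 from 55308726 to 55369570, minus strand, 2951 exon bases) encodes GTP cyclohydrolase 1, the entry enzyme of tetrahydrobiopterin synthesis. Levels were 3.09, 3.64 and 3.11 RPKM with GST and 7.341, 6.623 and 8.496 RPKM with GST-PTR1. The lowest GST-PTR1 value was well above the highest GST value. The means were 3.28 ± 0.312 and 7.49 ± 0.945 RPKM (SD, n = 3 each), with a log2 change of 1.19 and a standard error of 0.14. Unlike NOS2, GCH1 was detected in the control cells, where it was above 43.9% of all genes tested, and it was above 62.3% of them with GST-PTR1.

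Among 19 further genes of nitric oxide and tetrahydrobiopterin metabolism, 16 were tested and their median log2 change was -0.18, where that of all genes tested was 0.0066. None was higher in edgeR's quasi-likelihood test at an adjusted p under 0.05 (1 at an unadjusted p under 0.05, and 1 by DESeq2), and 1 was lower, DDAH2, a homolog of an enzyme that degrades methylarginine inhibitors of nitric oxide synthase. DDAH2 went from 1.57 ± 0.393 to 0.972 ± 0.0525 RPKM (log2 change -0.69, standard error 0.22, adjusted p = 0.0456 by edgeR). Its call was lost when the smallest or the largest GST library or any single GST-PTR1 library was left out, with adjusted p from 0.0693 to 0.131. With library totals 7 genes of the list were lower. The counts of this and the following lists stand beside the same shares over all genes tested, 9.15% higher and 11.4% lower, and were not compared with them by a test. The remaining steps of cofactor synthesis, PTS with a log2 change of 0.47 (adjusted p = 0.0618 by edgeR) and SPR with 0.14, did not pass the test, and neither did QDPR, which regenerates the cofactor, with -0.016. GCHFR, the feedback regulator of GCH1, had a log2 change of -0.28, and the arginine-recycling enzyme ASS1 was abundant at 75.4 RPKM with GST and 66.1 RPKM with GST-PTR1. Of the other nitric oxide synthases, NOS3 was at 0.596 RPKM with GST and 0.481 RPKM with GST-PTR1, and NOS1 was not tested.

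PTGS2 (ENSG00000073756, chromosome 1 from 186640923 to 186649559, minus strand, 5269 exon bases) encodes cyclooxygenase-2, the inducible enzyme of prostaglandin synthesis. Counts were 2, 1 and 3 with GST and 163, 293 and 410 with GST-PTR1. The level with GST-PTR1 was 1.39, 2.04 and 1.97 RPKM (mean 1.80 ± 0.357, SD, n = 3), against a GST mean of 0.0182 ± 0.00798 RPKM. All 3 GST libraries were at or under 3 counts, and the smallest GST-PTR1 library was the lowest of its treatment. Against a floor of 3 counts per GST library (0.0280 RPKM), PTGS2 was at least 64.3-fold higher, and its fitted log2 change was 6.56. The largest GST library itself held 3 counts, so this bound refers to the measured counts and does not cover their sampling error. With GST-PTR1 its level per length was 1.44 times that of NOS2 and GCH1 stood at 4.16 times PTGS2.

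The constitutive cyclooxygenase gene PTGS1 was at 0.830 ± 0.172 RPKM with GST and 0.733 ± 0.108 RPKM with GST-PTR1 (log2 change -0.18, adjusted p = 0.556 by edgeR). It belongs to a list of 23 further prostaglandin and leukotriene genes, of which 10 were at or under 3 counts in every library and 9 were tested, with a median log2 change of -0.056. PLA2G4A, which frees arachidonic acid for both cyclooxygenases, was at 22.3 RPKM with GST and 21.5 RPKM with GST-PTR1 and did not pass the test. Of the prostaglandin E synthases downstream of PTGS2, PTGES2 had a log2 change of 0.12 and PTGES3 of 0.015, neither past the test, while the inducible PTGES had 0 counts in each GST library and 3, 2 and 5 in the GST-PTR1 libraries. Another gene covers 67.0% of the exon bases of PTGES, and reads there were left out.

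The 3 genes of that list that changed all encode prostanoid receptors. PTGER4, the EP4 receptor for prostaglandin E2, rose from 14, 19 and 30 counts to 291, 412 and 625 counts, or from 0.248 ± 0.0490 to 3.70 ± 0.364 RPKM, with a log2 change of 3.87 (standard error 0.19, adjusted p = 1.83e-07 by edgeR). PTGIR, the prostacyclin receptor, rose from 4, 2 and 8 counts to 21, 35 and 43 counts, a log2 change of 2.29. PTGDR2, a receptor for prostaglandin D2, fell from 49, 29 and 48 counts to 6, 8 and 7 counts, a log2 change of -3.08. Another gene shares 4.91% of its exon bases. None of the 3 receptors overlapped between treatments. PTGIR and PTGDR2 rest on few reads, and both left the test where at least 10 counts were required throughout. PTGIR passed the expression filter only through the GST-PTR1 libraries and PTGDR2 only through the GST libraries, so nothing is read from their calls.

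**Figure D2:**
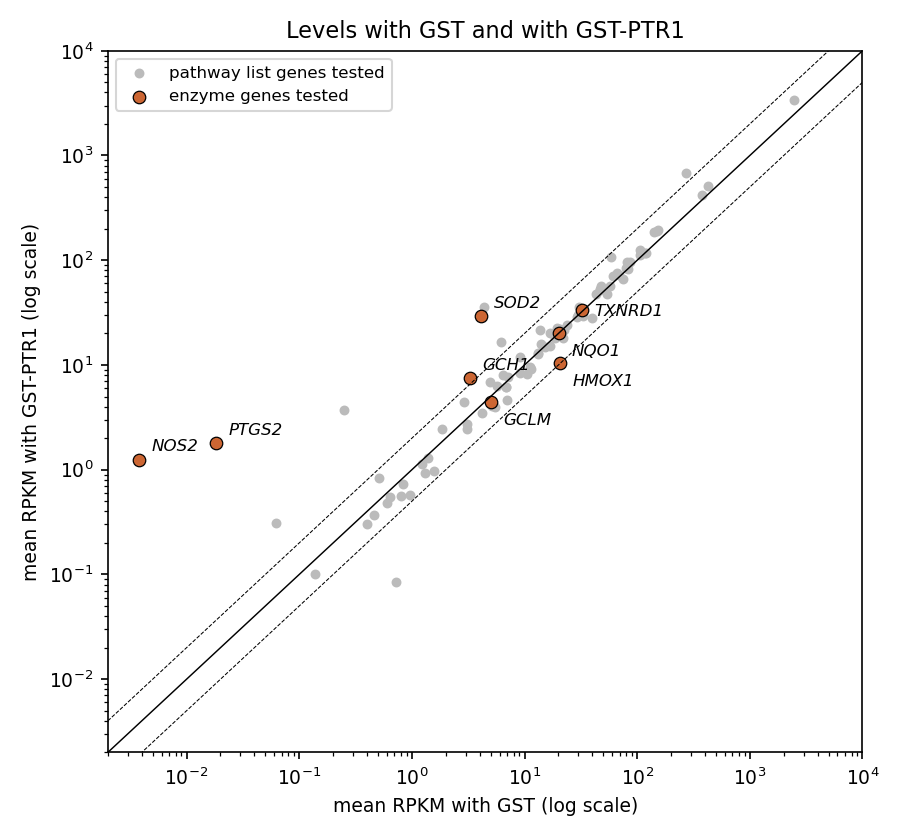
Mean RPKM with GST (x, log scale) and with GST-PTR1 (y, log scale) for the 8 enzyme genes tested (orange) and the tested genes of 5 pathway lists (grey), with the line of equal levels and dashed lines at 2-fold. NOS2 and PTGS2 lie far above the line at GST levels of 0.00378 and 0.0182 RPKM, SOD2 and GCH1 above it at 4.10 and 3.28, HMOX1 on the lower dashed line, and NQO1, GCLM and TXNRD1 near equality.

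IDO1 (ENSG00000131203, chromosome 8 from 39759794 to 39785963, plus strand) encodes indoleamine 2,3-dioxygenase 1. It had 0, 1 and 0 counts with GST and 0, 2 and 3 counts with GST-PTR1. Every library was at or under 3 counts, so no fold is given, and any difference was not detectable at this depth. Its paralog IDO2 had 0 counts in every library. Of 13 further genes of tryptophan metabolism 7 were tested, with a median log2 change of 0.19, and 1 was higher. That gene was KMO, kynurenine 3-monooxygenase, which acts on the kynurenine that IDO1 leads to, and it went from 2.88 ± 0.119 to 4.40 ± 0.689 RPKM (log2 change 0.62, standard error 0.13, adjusted p = 0.00836 by edgeR). None was lower in that test, where 2 were at an unadjusted p under 0.05 and DESeq2 called 1. TDO2, the liver-type enzyme for the same first step as IDO1, was at 0.512 ± 0.127 and 0.840 ± 0.236 RPKM and did not pass (adjusted p = 0.068 by edgeR). The kynurenine-sensing receptor gene AHR was not tested for lack of reads. These counts changed by 1 to 2 genes under other settings, among them a second gene called higher and 1 called lower without the smallest GST-PTR1 library, and 1 called lower without the middle GST library.

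SOD2 (ENSG00000112096, chromosome 6 from 160090089 to 160183561, minus strand) encodes the mitochondrial manganese superoxide dismutase, which turns superoxide into hydrogen peroxide. Counts were 1269, 1723 and 1896 with GST and 10907, 16486 and 22739 with GST-PTR1, where they were the largest of any member. Levels were 4.013, 4.295 and 4.002 RPKM with GST and 25.8, 31.8 and 30.4 RPKM with GST-PTR1. The 3 GST libraries lay within a narrow range and every GST-PTR1 library was above all of them. The means were 4.10 ± 0.166 and 29.3 ± 3.15 RPKM (SD, n = 3 each), with a log2 change of 2.84 (standard error 0.12). SOD2 moved from above 48.9% of all genes tested to above 86.5%. The gene model used in counting holds 18985 exon bases, which lowers its level per length, but not its fold change, relative to a shorter transcript.

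Of 27 further genes that make or remove superoxide and peroxide, 17 were tested, with a median log2 change of 0.20, 1 higher and 1 lower. CYBB, the catalytic subunit of the superoxide-producing phagocyte NADPH oxidase, was at 57.9 ± 6.91 RPKM with GST and 57.2 ± 2.32 RPKM with GST-PTR1 and did not pass the test. The lower gene was GPX7, a peroxidase of the endoplasmic reticulum, from 39.9 ± 2.57 to 28.2 ± 3.70 RPKM (log2 change -0.50, adjusted p = 0.0133 by edgeR). Its call was lost without the largest GST library (adjusted p = 0.0519) and without the middle GST-PTR1 library (adjusted p = 0.0718), both from edgeR. SOD1, the cytosolic counterpart of SOD2, was at 142 ± 29.8 RPKM with GST and 187 ± 49.4 RPKM with GST-PTR1, a spread in which its log2 change of 0.40 did not pass (adjusted p = 0.173 by edgeR). All 6 peroxiredoxin genes, PRDX1 to PRDX6, had log2 changes between 0.082 and 0.36 and none passed.

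HMOX1 (ENSG00000100292, chromosome 22 from 35776354 to 35790207, plus strand, 2405 exon bases) encodes heme oxygenase 1, which breaks heme down to biliverdin, carbon monoxide and iron. It was the member that was lower with GST-PTR1. Levels were 16.8, 23.3 and 22.1 RPKM with GST and 6.993, 11.96 and 12.13 RPKM with GST-PTR1. The highest GST-PTR1 library was below the lowest GST library. The means were 20.7 ± 3.48 and 10.4 ± 2.92 RPKM (SD, n = 3 each), with a log2 change of -0.996 (standard error 0.20) and a ratio of 0.501, just short of a 2-fold fall. With uncorrected library totals the log2 change was -1.20. In both treatments the smallest library was the lowest, and the part of library size in that was not tested.

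NQO1 (ENSG00000181019, chromosome 16 from 69740899 to 69760854, minus strand, 3254 exon bases) encodes NAD(P)H quinone dehydrogenase 1, which reduces quinones. Levels were 13.0, 24.7 and 23.4 RPKM with GST and 14.2, 19.7 and 27.1 RPKM with GST-PTR1. The ranges overlapped almost entirely, and the smallest library was again the lowest of each treatment. The means were 20.4 ± 6.39 and 20.3 ± 6.49 RPKM (SD, n = 3 each), a coefficient of variation of 31.4% and 31.9%, the widest spread among the members above the limit of detection in both treatments. The log2 change was -0.0014 (standard error 0.25), and it kept its sign in 5 of 13 alternative settings.

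GCLM (ENSG00000023909, chromosome 1 from 94350761 to 94374966, minus strand, 5374 exon bases) encodes the modifier subunit of glutamate-cysteine ligase, the first enzyme of glutathione synthesis. Levels were 4.37, 5.72 and 4.95 RPKM with GST and 3.98, 4.74 and 4.45 RPKM with GST-PTR1. These ranges overlapped, and the means of 5.01 ± 0.676 and 4.39 ± 0.384 RPKM (SD, n = 3 each) gave a log2 change of -0.19 (standard error 0.13). With uncorrected library totals the log2 change was -0.39 and GCLM was called lower. The catalytic subunit gene GCLC, at 6.87 ± 0.183 and 6.19 ± 0.471 RPKM, had a log2 change of -0.15 and did not pass.

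TXNRD1 (ENSG00000198431, chromosome 12 from 104609557 to 104744061, plus strand, 6686 exon bases) encodes the cytosolic thioredoxin reductase, which keeps thioredoxin reduced. Levels were 28.85, 35.05 and 32.34 RPKM with GST and 32.8, 33.2 and 34.4 RPKM with GST-PTR1. All GST-PTR1 values lay inside the GST range. The means were 32.1 ± 3.11 and 33.5 ± 0.839 RPKM (SD, n = 3 each), with a log2 change of 0.062 (standard error 0.11) that turned to -0.13 with uncorrected library totals. TXNRD1 had the highest level per length of the members in both treatments, 7.82 times that of SOD2 with GST and 1.14 times with GST-PTR1.

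SRXN1 (ENSG00000271303, chromosome 20 from 627259 to 634014, minus strand, 2698 exon bases) encodes sulfiredoxin 1, which repairs overoxidized peroxiredoxins. Its counts were 1, 1 and 2 with GST and 9, 2 and 5 with GST-PTR1. In this annotation 85.0% of its exon bases are shared with a second gene on the same strand, ENSG00000270299, which had 0 counts in every library, and reads on shared bases were left out. Counting rested on 406 exon bases, so the table does not measure the level of SRXN1.

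**Figure D3:**
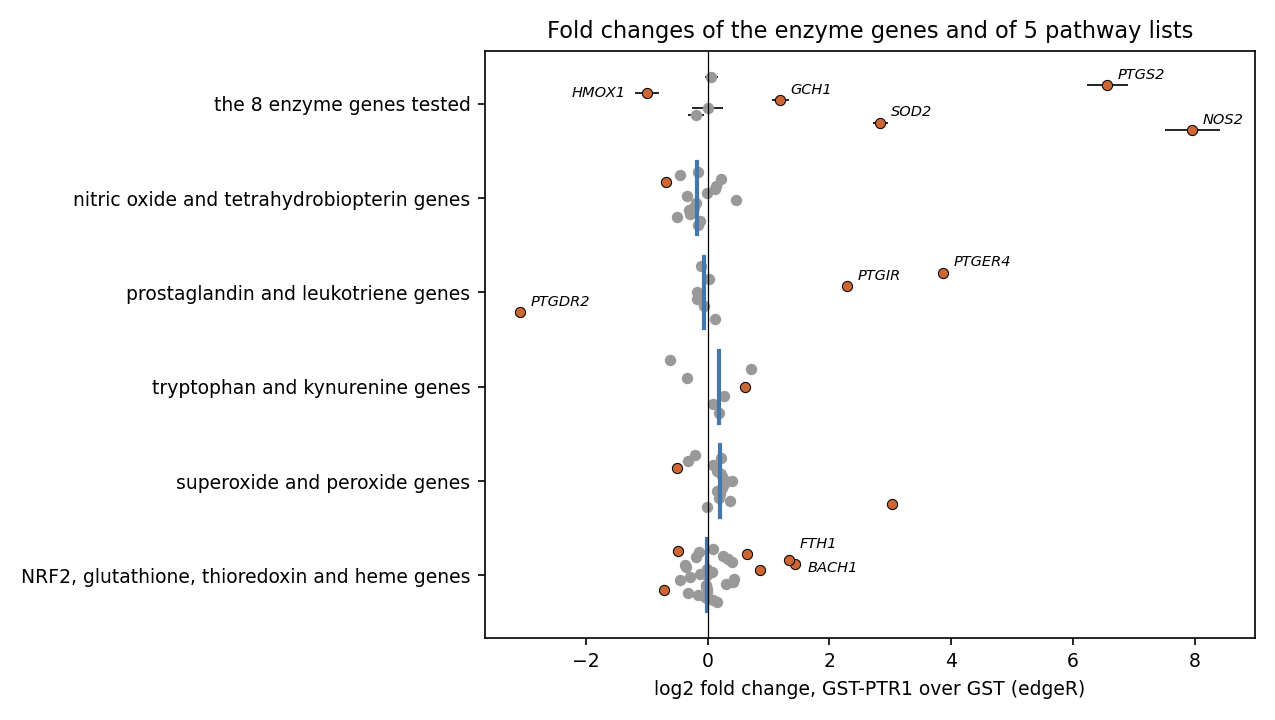
Log2 fold changes, GST-PTR1 over GST, of the 8 enzyme genes tested (with standard errors) and of the tested genes of 5 pathway lists, where each point is a gene, orange points passed edgeR's test at 0.05 after adjustment and the blue bar is a list's median. List medians lie between -0.18 and 0.20, and the 4 enzyme genes to the right range from 1.19 to 6.56 and 7.96.

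A further list of 36 genes of the NRF2, glutathione, thioredoxin and heme systems, to which HMOX1, NQO1, GCLM, TXNRD1 and SRXN1 belong by function, was examined beside them. Of these, 33 were tested, with a median log2 change of -0.0076, 4 higher and 2 lower, where 9.15% and 11.4% of all genes tested were. The higher genes include both transcription factors named with HMOX1. BACH1, its repressor, rose from 6.14 ± 0.742 to 16.6 ± 0.471 RPKM (log2 change 1.44, standard error 0.11, adjusted p = 5.64e-06 by edgeR). NFE2L2, which encodes NRF2, rose from 13.7 ± 0.380 to 21.4 ± 0.507 RPKM (log2 change 0.65, standard error 0.092, adjusted p = 0.000619 by edgeR) and is named after its values were seen. KEAP1, which marks NRF2 for degradation, had a log2 change of -0.0066 and did not pass. Parts of BACH1 and NFE2L2, 17.8% and 16.6% of their exon bases, are shared with other genes on the same strand.

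The other higher genes were FTH1 and SQSTM1. FTH1, the ferritin heavy chain that stores the iron HMOX1 frees, rose from 269 ± 39.2 to 680.5 ± 80.7 RPKM (log2 change 1.34, standard error 0.14, adjusted p = 7.69e-05 by edgeR). FTH1 has many near-identical copies in the genome, so its level is uncertain. SQSTM1, the autophagy receptor p62, rose from 58.7 ± 3.21 to 107 ± 12.4 RPKM (log2 change 0.86, adjusted p = 0.000564 by edgeR). SLC7A11, the cystine transporter that feeds glutathione synthesis by GCLM and GCLC, fell from 1.32 ± 0.190 to 0.938 ± 0.106 RPKM (log2 change -0.48, adjusted p = 0.0466 by edgeR), and OSGIN1, an oxidative stress-induced growth inhibitor, fell from 0.967 ± 0.0208 to 0.579 ± 0.111 RPKM (log2 change -0.72, adjusted p = 0.0292 by edgeR). The call of SLC7A11 was lost without the smallest or the middle library of either treatment (adjusted p from 0.0928 to 0.127 by edgeR), and that of OSGIN1 without the middle or the largest GST library or the smallest or middle GST-PTR1 library (adjusted p from 0.0592 to 0.0904 by edgeR). HMOX2, the constitutive heme oxygenase, was at 18.5 ± 1.53 RPKM with GST and 18.3 ± 0.573 RPKM with GST-PTR1. With GST, HMOX1 was above HMOX2 in mean level, but their ranges overlapped (16.8 to 23.3 against 17.0 to 20.1 RPKM). In the smallest GST library HMOX1 was below HMOX2. With GST-PTR1, HMOX1 was below HMOX2 in every library. TXN, the substrate of TXNRD1, had a log2 change of 0.33 and did not pass.

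**Figure D4:**
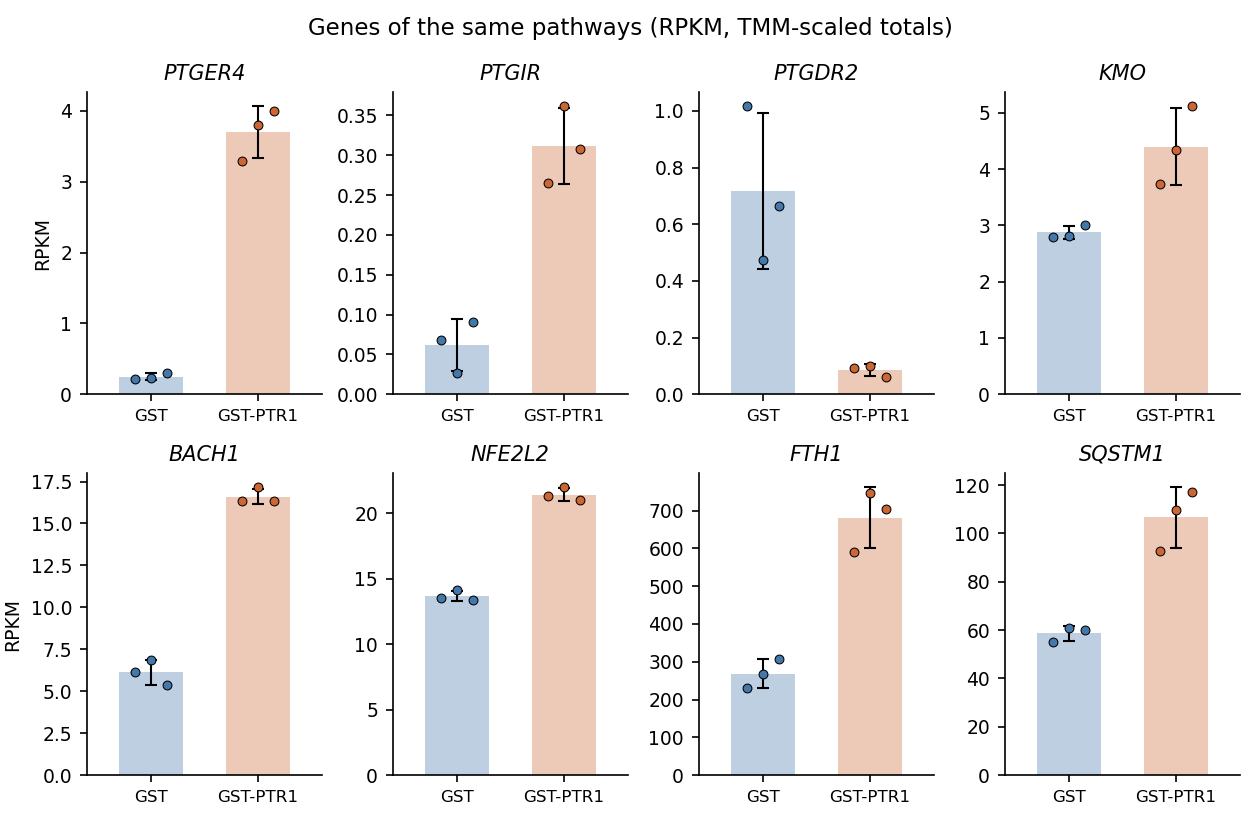
RPKM of 8 genes of the same pathways in each library (points), with the mean (bar) and SD (error bar) of 3 libraries per treatment; axes differ between panels. PTGER4, PTGIR, KMO, BACH1, NFE2L2, FTH1 and SQSTM1 are higher in all GST-PTR1 libraries and PTGDR2 is lower in all of them.

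In order of mean level, the members with GST were TXNRD1, HMOX1, NQO1, GCLM, SOD2 and GCH1, with NOS2 and PTGS2 at the limit of detection. Of neighbors in that order only HMOX1 and NQO1 had overlapping ranges with GST (ratio 1.02). With GST-PTR1 the order was TXNRD1, SOD2, NQO1, HMOX1, GCH1, GCLM, PTGS2 and NOS2, and the ranges of neighbors overlapped for SOD2 with NQO1 and for HMOX1 with GCH1, but for no other pair of neighbors. The ratio of SOD2 to GCH1 went from 1.25 to 3.91 and that of HMOX1 to NQO1 from 1.02 to 0.509. Levels per length depend on the gene model and are compared here as measured.

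Profiles most like those of the 3 members with the largest changes were taken as the smallest Euclidean distance between centered log2 CPM values over the 6 libraries. For NOS2 the nearest were LIF (distance 0.605), the long noncoding RNA LINC02605 (0.714) and TNFSF9 (0.931). For PTGS2 they were TNFAIP6 (0.571), the complement gene C1QB (0.593) and TNFSF9 (0.697). For SOD2 they were MIR3142HG, the host gene of a microRNA (0.167), TNFRSF9 (0.271) and the kinase gene MAP3K8 (0.299). TNFSF9, the ligand of the receptor TNFRSF9, was listed for both NOS2 and PTGS2. These 2 members had at most 3 counts in any GST library. The GST part of their profiles therefore depends largely on the prior count of 2 added before taking logs. The libraries share their treatment and depth, and the distances are given as a description.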

How the data were processed

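Per the file header and the methods, the authors counted stranded mRNA reads on genes with featureCounts 1.5.0-p1, using the Ensembl release 75 annotation of GRCh37, and deposited raw counts for 6 libraries. Multi-mapping reads and reads on exons that 2 or more same-strand genes share were not counted, and mates were not joined. The aligner is not given in the sources used here. The deposited table also gives exon lengths, another quantity that was used for RPKM. Columns name the treatment but not the sample. Symbols were matched by Ensembl identifier for 39795 genes, 96 of them, SOD2 included, by GENCODE names alone.

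From the deposited counts, treatments were compared in R 4.3.3 with edgeR 4.0.16 (TMM, filterByExpr, glmQLFit, glmQLFTest) and Benjamini-Hochberg adjustment over 16926 genes, with no covariate and a threshold of 0.05. DESeq2 1.42.0 size factors and test, library totals, other filters and leaving out each library were alternatives, and fits of the 4 libraries whose column numbers occur in both treatments were added after the data were seen. The test was first run on simulated counts. The limit of detection of a gene in a treatment was 3 counts per library, which corresponds to 0.0761 to 0.18 CPM per library. It covers counting error only, and that only for a gene without reads. Libraries of a treatment differed beyond sampling noise, with a chi-square per gene of 8.47 to 47.6.

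The members, the 5 pathway lists and the motifs were chosen with earlier results of these data known. Named genes are the members, the 3 list genes with the smallest adjusted p in each direction, and the 3 nearest profiles of the 3 members that changed most among those with a mean count of at least 50. NFE2L2, list genes that did not pass the test and genomic neighbors were named after their values were seen. TXNIP and MRC1 were not matched. Results of some single list genes are not reported here. Promoter windows came from RefSeq on GRCh38.p14 and were searched for exact motif letters.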

Additional observations from a re-analysis of the deposited data

How the results depend on the processing

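Over the alternatives that tested them, log2 changes were 7.38 to 10.1 for NOS2, 6.25 to 6.86 for PTGS2, 2.64 to 2.92 for SOD2, 0.99 to 1.28 for GCH1 and -1.20 to -0.78 for HMOX1. The set was chosen on this comparison and NOS2 and PTGS2 entered the test only through the GST-PTR1 libraries, so these ranges are no sign of stability. Requiring 10 counts or more throughout left 6 members, of which 2 were higher, because NOS2 and PTGS2 were not tested there. With library totals 2 members were lower in place of 1, GCLM being added at -0.39.

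Over all genes, 1549 were higher and 1937 lower. With library totals 927 were higher and 3788 lower, and a filter of at least 1 count in any library gave 2608 higher. Leaving out 1 library gave 1179 to 1818 lower genes, with 1237 without the largest GST library, 1179 without the middle and 1212 without the largest GST-PTR1 library.

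With library totals the lower counts were 7 for nitric oxide and tetrahydrobiopterin genes, 2 for prostaglandin and leukotriene genes, 2 for tryptophan genes, 2 for superoxide and peroxide genes and 6 for NRF2 and heme genes. The filter of at least 1 count gave 1 higher and 2 lower nitric oxide genes, 2 higher and 1 lower tryptophan genes, 3 higher superoxide genes and 7 higher NRF2 genes, and the filter of at least 10 counts gave 1 higher and 0 lower prostaglandin genes and 1 lower NRF2 gene. DESeq2's test gave 1 higher nitric oxide gene, and 2 higher and 1 lower tryptophan genes. Leaving out 1 library gave 0 to 1 higher and 0 to 1 lower nitric oxide genes, 1 to 2 higher and 0 to 1 lower tryptophan genes, 0 to 1 lower superoxide genes and 0 to 2 lower NRF2 genes. The nitric oxide list had 0 lower genes without the smallest or largest GST library or the smallest or middle GST-PTR1 library, and 1 higher without the smallest GST-PTR1 library. The superoxide list had 0 lower genes without the largest GST or the middle GST-PTR1 library. The NRF2 list had 0 lower genes without the middle GST or the smallest or middle GST-PTR1 library, and 1 without the largest GST library. The looser core TGANNNNGC gave 4 members with an antioxidant motif in place of 2, and 41.8% of all windows hold it. The cause of these changes was not tested.

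The numbers in the column names are not the replicate numbers of the samples, but 2 of them occur in both treatments, on 4 libraries, and no source says that they mark pairs. Across genes, the deviations of libraries with the same number had a correlation of -0.030. After the data were seen, these 4 libraries were fitted without and with the number as a replicate block. That gave 1790 and 1603 higher genes, 1848 and 1715 lower genes, and 4 higher and 1 lower member in both. Without and with the block, the nitric oxide list had 1 higher and 0 lower genes, the tryptophan list 2 and 1 higher and 1 lower, and the NRF2 list 0 lower, so that DDAH2, SLC7A11 and OSGIN1 lost their calls in both. Depth limits IDO1, SRXN1 and the GST levels of NOS2 and PTGS2, and an exact permutation test of 3 against 3 libraries cannot go below p = 0.1.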

Other observations

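Tested genes within 100 kb of the 8 tested members were examined after their values were seen, to show whether the transcripts beside a member moved as well. Of 23 such genes, 5 were higher and 1 was lower by edgeR at the adjusted threshold of 0.05, where 9.15% of all genes tested were higher and 11.4% lower, and 2 were at least 2-fold higher, where 3.68% were. These counts were not compared with those shares by a test. The 2 genes, SAMD4A and BCAR3, passed the expression filter only through the GST-PTR1 libraries, so nothing is read from their calls or from that count. WTAP, an RNA methylation factor whose gene overlaps the SOD2 gene model on the opposite strand, went from 16.8 to 25.7 RPKM, which gives a log2 change of 0.61 (adjusted p = 0.00151), against 2.84 for SOD2. TCP1 and ACAT2, also beside SOD2, did not pass the test. SAMD4A, 48693 bases from GCH1, had 0, 3 and 6 counts with GST and 11, 15 and 28 with GST-PTR1, a log2 change of 2.04. Its call was also lost without the middle GST library or the largest GST-PTR1 library. BCAR3, 38055 bases from GCLM, went from 0.0828 to 0.425 RPKM (log2 change 2.32), while GCLM itself overlapped between treatments. DNTTIP2, also near GCLM, rose by a log2 change of 0.60. NOB1 beside NQO1 had 0.45 and lost its call with library totals. TOM1, beside HMOX1, fell from 4.03 to 2.23 RPKM, which gives a log2 change of -0.85 (adjusted p = 0.00273 by edgeR).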
